A study of Homo sapiens with 6 samples.

Results

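The 9 genes described here move, store and sense iron in the liver cell: transferrin (TF), its receptors TFRC and TFR2, the ferritin chains FTH1 and FTL, the ferritin cargo receptor NCOA4, the iron regulatory proteins ACO1 and IREB2, and hepcidin (HAMP). They were found by exact gene name, and all 9 were present among the 58302 genes of both deposited tables. The rule is a list of names and uses no measured value.

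Hepatocytes secrete transferrin, which carries ferric iron in plasma, and take it back up through the receptor TFRC. Surplus iron is held inside a shell of ferritin heavy (FTH1) and light (FTL) chains, and NCOA4 delivers that shell to the lysosome when iron is needed. ACO1 and IREB2 bind a stem and loop called the iron-responsive element. This element lies in the untranslated leader of both ferritin mRNAs, where binding blocks translation, and in the trailing untranslated region of TFRC mRNA, where binding slows decay. HAMP encodes the hormone that closes the cellular iron exporter, and TFR2 is a transferrin sensor upstream of it.

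RNA that came down with an antibody was sequenced from HepG2, a human hepatocellular carcinoma cell line (RNA immunoprecipitation, RIP). PABPC1 and its relative PABPC4 are cytoplasmic proteins that bind the poly(A) tail. There were 2 PABPC4 RIP libraries from HepG2 cells labelled PABPC4 overexpressed, 2 PABPC1 RIP libraries from HepG2 cells labelled PABPC1 overexpressed, and 2 rabbit IgG libraries, 1 from each of these cell populations. All cells therefore overexpressed 1 of the proteins, by means not given in the sources used here. The labels do not say whether replicate libraries came from separate cultures, so a p-value reflects at most how far these libraries differed, which can be technical. PABPC4 RIP and PABPC1 RIP differ in antibody, cell population and depth together, which cannot be told apart. Each RIP was set against both IgG libraries pooled, 1 of which came from cells overexpressing the other protein. RIP over IgG therefore also mixes antibody with cell population. The 2 IgG libraries are treated as replicates, and which came from which cells does not follow from the values. Leaving 1 of them out also removes 1 cell population from the control. Reads of each library were recovered from the deposited folds and p-values, and the libraries of 1 antibody are called A and B, the larger first, because their replicate numbers do not follow from the values.

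The PABPC4 libraries held 850190 and 841327 reads, the PABPC1 libraries 289217 and 277552 and the IgG libraries 133030 and 94235. Nuclear-encoded genes whose library reads were recovered took 76.7% to 78.1% of PABPC4 reads, 52.9% to 58.4% of PABPC1 reads and 38.5% to 40.5% of IgG reads. All recovered genes together held 690769 of the 850190 reads of PABPC4 library A, but 55857 of the 133030 reads of IgG library A. The remaining reads could not be assigned to genes, so these nuclear shares are lower bounds. The median gene lay above 1 in both deposited comparisons, at 1.71-fold for PABPC4 over IgG and 1.27-fold for PABPC1 over IgG, over 10672 genes with reads in every group. All 12 hepatocyte markers were detected in both RIPs, and 11 in IgG. Their summed reads-per-million level (RPM) was 9034 to 9823 with PABPC4, 6780 to 7559 with PABPC1 and 4266 to 4480 with IgG, and on the same scale over nuclear reads alone 11570 to 12810 with PABPC4, 12820 to 12940 with PABPC1 and 10540 to 11630 with IgG. Markers of erythrocytes, which the labels do not name, were also present, 5 of 9 with library reads. They summed to 377 to 551 RPM with PABPC4, 1075 to 1157 with PABPC1 and 3232 to 3258 with IgG, and AHSP and GYPB were at 0 in every library. Leukocyte markers, 9 of 10 with library reads, summed to 147 to 182 RPM with PABPC4, 173 to 245 with PABPC1 and 323 to 382 with IgG. Fibroblast markers, all 6 with library reads, summed to 15.4 to 24.7 RPM with PABPC4, 43.2 to 55.3 with PABPC1 and 180.4 to 218 with IgG, and endothelial markers, 2 of 4 with library reads and VWF at 0, to 16.5 to 16.6 RPM with PABPC4, 18 to 24.2 with PABPC1 and 42.5 to 60.1 with IgG. The labels name HepG2 cells only. Where the RNA of the other markers came from, and why marker levels differed between antibodies, was not tested. The mRNA of PABPC4 itself stood at 162 to 183 RPM in PABPC4 RIP, 111 to 155 in PABPC1 RIP and 42.5 to 75.2 in IgG. That of PABPC1 stood at 591 to 676 RPM in PABPC4 RIP, 595 to 634 in PABPC1 RIP and 286 to 318 in IgG.

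The ferritin light chain was the most abundant of the 9 mRNAs per length in every library, and the iron sensors were among the least abundant. FTL averaged 698 ± 104 RPKM (RPM per kilobase of counted length) with PABPC4, 821 ± 52.8 with PABPC1 and 1016 ± 52.3 with IgG (SD, n = 2 each). FTH1 averaged 128 ± 29.3 RPKM with PABPC4, 125 ± 21.0 with PABPC1 and 177 ± 15.3 with IgG. The heavy chain was thus second in all 3 groups, well below the light chain. TF averaged 76.3 ± 6.07 RPKM with PABPC4, 50.8 ± 7.89 with PABPC1 and 36.8 ± 2.33 with IgG. NCOA4 averaged 46.4 ± 5.26 RPKM with PABPC4, 50.4 ± 13.7 with PABPC1 and 34.8 ± 2.30 with IgG. Within each library, TF lay above NCOA4 in both PABPC4 libraries. It also did so in both IgG libraries, by little (35.1 against 33.2 RPKM in A and 38.4 against 36.4 in B). In the PABPC1 libraries TF was above NCOA4 in A (45.2 against 40.7 RPKM) and below it in B (56.4 against 60.1). The other 5 mRNAs lay between 0.778 and 11.1 RPKM with PABPC4, between 2.73 and 10.1 with PABPC1 and between 0 and 10.6 with IgG. Among these, TFR2 and IREB2 overlapped with PABPC4, and TFR2 overlapped both ACO1 and IREB2 with PABPC1. The lengths are those the deposited folds imply, such as 878 nucleotides for FTL, 2030 for FTH1 and 8565 for TF, so a gene whose annotated exons reach beyond its main transcript has a low RPKM. In all, the 9 genes took 0.188% of PABPC4 reads, 0.179% of PABPC1 reads and 0.180% of IgG reads.

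**Figure D1:**
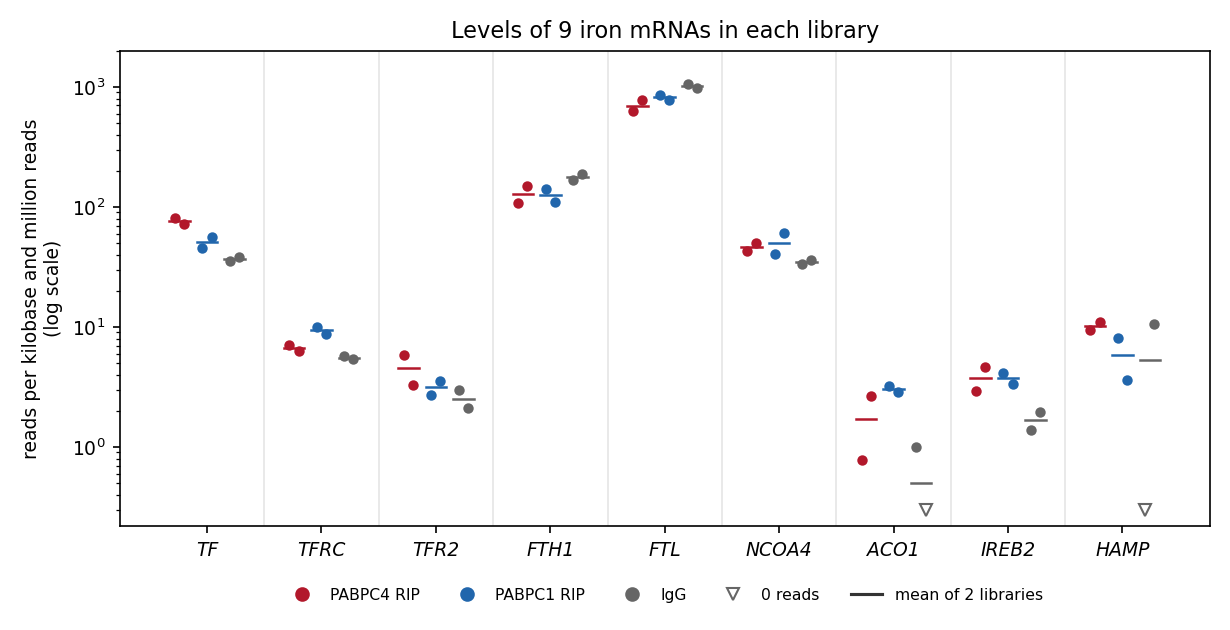
Levels of the 9 iron mRNAs in each of the 6 libraries, in RPKM on a log axis. Points are libraries, short lines are means of 2 libraries, and open triangles mark 0 reads. FTL lies between 624 and 1053 in every library and the other genes below it.

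Transferrin was the only one of the 9 mRNAs called higher than IgG in a deposited table, and only with PABPC4. Among all genes with a deposited p, 5.54% were called higher and 0.9% lower with PABPC4 at an adjusted p under 0.05, against 1 higher and 1 lower of these 9. TF (ENSG00000091513, chromosome 3, 133661998 to 133796641, GRCh38.p14) had 690.4 and 616.9 RPM in the PABPC4 libraries, 387 and 483 in the PABPC1 libraries and 301 and 329 in the IgG libraries. Both PABPC4 libraries lay above both PABPC1 libraries, which lay above both IgG libraries. The authors' deposited table listed TF at 2.08-fold over IgG with PABPC4 (adjusted p = 7.76e-08) and at 1.38-fold with PABPC1 (adjusted p = 0.419). From the summed reads, 1106 of TF with PABPC4 against 71 with IgG, the exact 95% interval was 1.65 to 2.7. This deposited p covers counting error only. TF was also ranked among the 827 genes used for ferritin below, which were chosen by their IgG reads. It had a higher deposited fold than 56.3% of them with PABPC4 and 54.3% with PABPC1. The median of these genes was 1.92-fold with PABPC4 and 1.33-fold with PABPC1, so TF lay near the middle in both. The call depended on the scaling. Set to the median gene in a limma voom fit of the recovered library reads, TF was 1.16-fold over IgG with PABPC4 (95% interval 0.884 to 1.52, adjusted p = 0.611). The overlap of TF with 7 other annotated genes, SRPRB among them, also leaves some of its reads uncertain, since no source used here says whether reads were counted by strand.

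The transferrin receptors gave few reads. TFRC, the main uptake receptor (ENSG00000072274, chromosome 3, 196049284 to 196082090), had 55.3 and 49.9 RPM with PABPC4, 79.5 and 68.5 with PABPC1 and 45.1 and 42.5 with IgG. The PABPC1 libraries were the highest and the IgG libraries the lowest, without overlap. The authors' deposited table listed TFRC at 1.2-fold over IgG with PABPC4 and at 1.69-fold with PABPC1 (adjusted p = 1 in both). With 10 IgG reads the exact intervals ran over IgG from 0.621 to 2.58 with PABPC4 and from 0.832 to 3.76 with PABPC1. TFR2, the hepatocyte transferrin sensor (ENSG00000106327, chromosome 7, 100620420 to 100641552), had 25 and 14 reads with PABPC4, 4 and 5 with PABPC1 and 2 and 1 with IgG. At 29.4 and 16.6 RPM with PABPC4, 13.8 and 18 with PABPC1 and 15.0 and 10.6 with IgG, the PABPC4 and PABPC1 libraries overlapped. The authors' deposited table listed it at 1.79-fold over IgG with PABPC4 and 1.24-fold with PABPC1 (adjusted p = 1 in both), and a difference from IgG was not detectable at this depth. With PABPC4 the direction of TFRC turned under median-of-ratios scaling, to 0.619-fold (limma voom adjusted p = 0.439), and TFR2 gave 0.738-fold in limma voom and 1.01-fold by the ratio of means on that scale.

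The ferritin mRNAs lay below IgG in both RIPs under the authors' scaling, and FTL with PABPC4 was the deposited call in that direction. FTL carries the iron-responsive element close to its start. Its sequence is shown because it is the site through which the sensors ACO1 and IREB2 act on ferritin, and that of ALAS2, an erythroid mRNA described further on, is set beside it. Both are RefSeq sequence of GRCh38.p14, 5′ to 3′ on the transcribed strand, FTL from chr19:48965329-48965358 on the plus strand and ALAS2 from chrX:55030946-55030975 on the minus strand. The capitals mark the loop.
FTL: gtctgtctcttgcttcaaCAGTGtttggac
ALAS2: ctgtcattcgttcgtcctCAGTGcagggca
The FTL loop spans transcribed bases 39 to 43, and that of ALAS2 bases 21 to 25. Aligned at the loop, 15 of the 30 bases were the same. These include the C and the CAGTG of the motif described next, which both sequences hold, so the count does not measure likeness beyond that motif. The motif searched, a C, 5 bases of any kind and then CAGTGN, was present in 586 of 35116 windows of the first 50 transcribed bases (1.67%) and, read on the opposite strand, in 583 (1.66%), and a match describes these letters only. Of the 7 genes of the 9 with a window, FTL alone held it, while HAMP and NCOA4 held the loop letters CAGTG, which 6.48% of all windows hold. FTH1 and TFR2 had no window. The window of EPAS1, whose mRNA also carries an iron-responsive element, held neither the motif nor the loop letters. A window without the motif therefore does not show that an mRNA lacks the element.

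FTL (ENSG00000087086, chromosome 19, 48965309 to 48966879) had 548 and 678 RPM with PABPC4, 754 and 688 with PABPC1 and 925 and 860 with IgG. Both IgG libraries were above all 4 RIP libraries, and both PABPC4 libraries were below both PABPC1 libraries. The authors' deposited table listed FTL at 0.687-fold of IgG with PABPC4 (adjusted p = 3.14e-05) and 0.808-fold with PABPC1 (adjusted p = 0.337). From 1036 FTL reads with PABPC4 against 204 with IgG the exact interval was 0.587 to 0.797. The PABPC4 call held in the limma voom fit with library totals (0.677-fold, adjusted p = 0.0042), and scaled to the median gene FTL was 0.382-fold of IgG (adjusted p = 3.7e-09). Without IgG library A, which leaves 81 IgG reads, FTL no longer passed (0.713-fold, chi-square adjusted p = 0.126). With PABPC1, FTL was 0.614-fold of IgG when scaled to the median gene, where limma voom gave an adjusted p of 0.017.

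FTH1, the chain that oxidises incoming iron (ENSG00000167996, chromosome 11, 61964285 to 61967634), had 218 and 302 RPM with PABPC4, 284 and 223 with PABPC1 and 338 and 382 with IgG. The RIP libraries overlapped each other, and all 4 lay below both IgG libraries. The authors' deposited table listed FTH1 at 0.721-fold with PABPC4 (adjusted p = 0.120) and 0.704-fold with PABPC1 (adjusted p = 0.427), neither past the threshold. With the median gene as the scale, limma voom gave 0.401-fold for FTH1 with PABPC4 (adjusted p = 4.6e-05) and 0.536-fold with PABPC1 (adjusted p = 0.058). On library totals the FTH1 fold over IgG with PABPC4 was 0.838 without PABPC4 library A and 0.604 without PABPC4 library B. It was 0.680 without IgG library A and 0.768 without IgG library B. FTH1 overlaps BEST1 on the annotation.

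Among 827 genes of 20 or more IgG reads, FTL had a higher deposited fold than 3.51% with PABPC4 and 8.71% with PABPC1, and FTH1 than 3.99% with PABPC4 and 5.56% with PABPC1. The median of these genes was 1.92-fold with PABPC4 and 1.33-fold with PABPC1. Both comparisons use the same IgG libraries, so their low places are not independent of each other. The erythrocyte, leukocyte, fibroblast and endothelial marker sums given above were also lower in both RIPs than in IgG, and without overlap lower with PABPC4 than with PABPC1 for all but the leukocyte markers. Their part in the ferritin values was not tested.

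Ferritin reads can also fall on processed pseudogenes. The tables held 25 FTH1 pseudogenes, 7 with summed reads, which together had 43 reads with PABPC4, 8 with PABPC1 and 3 with IgG, beside 439, 144 and 81 of FTH1 itself. FTH1P2 had the most, 16 reads with PABPC4, 5 with PABPC1 and 0 with IgG. Of 14 FTL pseudogenes, 2 had summed reads, and FTLP3 accounted for 26 reads with PABPC4, 4 with PABPC1 and 1 with IgG. A deposited p was given for 11 FTH1 and 3 FTL pseudogenes, so some had reads that could not be recovered. How the authors' counting divided reads between near-identical copies is uncertain. Adding the pseudogenes with reads recovered for every library to the parents changed no call. That addition left out FTH1P4, FTH1P25 and FTLP6, for which only sums were recovered.

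NCOA4, which carries ferritin to the lysosome (ENSG00000266412, chromosome 10, 46005088 to 46030623), had 174 and 204 RPM with PABPC4, 166 and 245 with PABPC1 and 135 and 149 with IgG. All RIP libraries were above both IgG libraries, and those of the 2 RIPs overlapped. The authors' deposited table listed it at 1.33-fold over IgG with PABPC4 (adjusted p = 0.667) and 1.45-fold with PABPC1 (adjusted p = 0.867). The exact intervals were 0.933 to 2.0 with PABPC4 and 0.976 to 2.22 with PABPC1. With PABPC4 the direction turned under median-of-ratios scaling, to 0.733-fold (limma voom adjusted p = 0.423).

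The sensors ACO1 and IREB2 were at the edge of detection in IgG. ACO1, a cytosolic aconitase that binds RNA when it lacks its iron-sulphur cluster (ENSG00000122729, chromosome 9, 32384643 to 32454769), had 5 and 17 reads with PABPC4, 7 and 6 with PABPC1 and 1 and 0 with IgG. In RPM these were 5.88 and 20.2 with PABPC4, 24.2 and 21.6 with PABPC1 and 7.52 and 0 with IgG, where 0 reads of library B allow up to 31.8 RPM. The authors' deposited table gave 3.44-fold over IgG with PABPC4 and 6.03-fold with PABPC1 (adjusted p = 1 in both). With a single IgG read the exact interval of the ACO1 ratio ran from 0.478 to 122.0 with PABPC4 and from 0.783 to 221.5 with PABPC1, so neither fold has a direction at this depth. IREB2, which is degraded when iron is plentiful (ENSG00000136381, chromosome 15, 78437431 to 78501453), had 31.8 and 49.9 RPM with PABPC4, 45.0 and 36.0 with PABPC1 and 15.0 and 21.2 with IgG. Its RIP libraries overlapped and lay above both IgG libraries on library totals. Scaled to the median gene, the PABPC4 and IgG libraries overlapped, at 1.035-fold (limma voom adjusted p = 0.984). On that scale the PABPC1 libraries stayed above IgG, at 1.46-fold (limma voom adjusted p = 0.777). The exact intervals over IgG ran from 0.865 to 8.75 with PABPC4 and from 0.788 to 9.17 with PABPC1. The authors' deposited table listed IREB2 at 2.25-fold over IgG with PABPC4 (adjusted p = 0.676) and 2.23-fold with PABPC1 (adjusted p = 1), on 4 IgG reads.

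The hepcidin mRNA, HAMP (ENSG00000105697, chromosome 19, 35282528 to 35285143), had 24 and 28 reads with PABPC4, 7 and 3 with PABPC1 and 0 and 3 with IgG. In RPM these were 28.2 and 33.3 with PABPC4, 24.2 and 10.8 with PABPC1 and 0 and 31.8 with IgG, so the IgG libraries overlapped those of both RIPs. The authors' deposited table gave HAMP 1.93-fold over IgG with PABPC4 (adjusted p = 0.866) and 1.10-fold with PABPC1 (adjusted p = 1). Without IgG library A the PABPC4 fold was 0.966, and no fold could be formed without IgG library B, since library A held 0 reads.

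Only the median of the 9 genes over IgG was near that of all genes, and single members lay on either side. The median deposited fold of the 9 was 1.79 with PABPC4, beside 1.71 over the 10672 genes, and 1.38 with PABPC1, beside 1.27. The PABPC4 median is the fold of TFR2, which had 3 IgG reads, so it is imprecise. With each protein 7 of the 9 folds were above 1 and 2, those of FTL and FTH1, were below. With PABPC1 none of the 9 was called in either direction by the deposited adjusted p, where 1.34% of all genes were called higher and 0.194% lower. At an unadjusted deposited p under 0.05, 1 of the 9 (TF) was higher and 2 (FTL and FTH1) were lower with each protein, where 11.7% of all genes were higher and 1.85% lower with PABPC4, and 5.98% higher and 1.05% lower with PABPC1. Fisher's exact test on the same sums also called 0 with PABPC1. limma voom with library totals called 1 of the 8 genes it tested higher and 1 lower with PABPC4, where it called 28.7% of all genes higher and 0.628% lower, and 0 with PABPC1, where it called 4.54% higher and 0.365% lower. limma voom with median-of-ratios scaling called 0 higher and 2 lower with PABPC4, FTL and FTH1, where it called 2.4% of all genes higher and 1.63% lower, and 1 lower with PABPC1, FTL, where it called 0.553% higher and 0.415% lower. On library totals, 7 of the 8 genes tested in the fit had PABPC4 libraries that did not overlap IgG, 5 of them higher and 2 lower, where 76% of all tested genes did not overlap and 2.5% were lower. With PABPC1 this was 6 of 8, 4 higher and 2 lower, where 50.8% of tested genes did not overlap and 6.79% were lower.

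**Figure D2:**
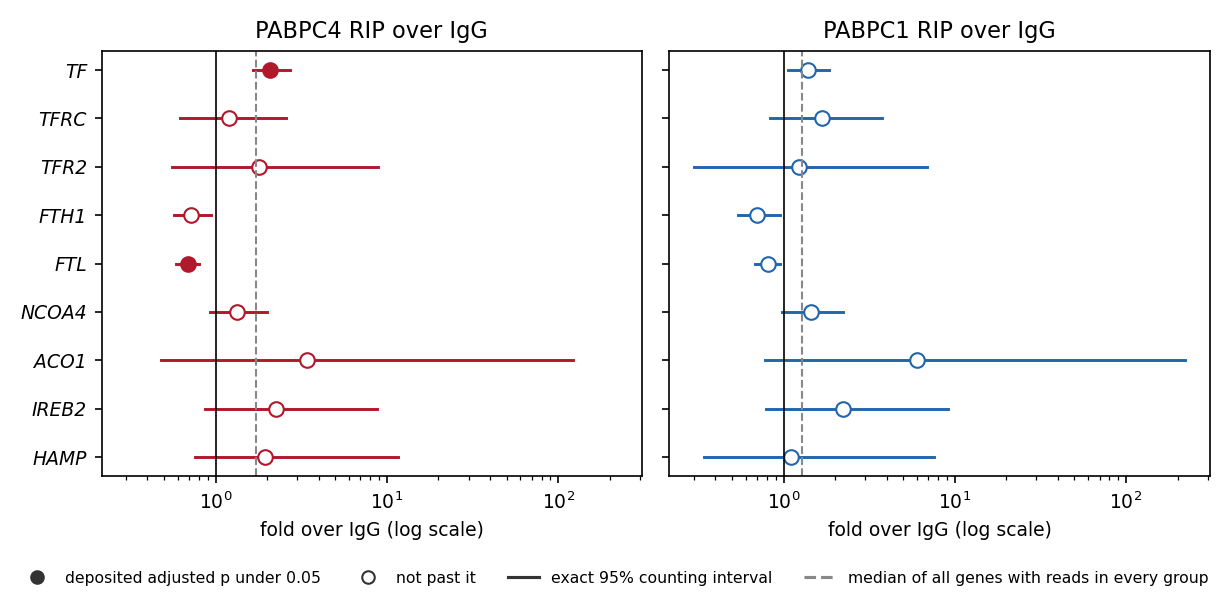
Deposited folds of the 9 iron mRNAs over IgG on a log axis, PABPC4 RIP left and PABPC1 RIP right. Bars are exact 95% counting intervals of the summed reads, filled points have a deposited adjusted p under 0.05, and the dashed line is the median gene (1.71 with PABPC4, 1.27 with PABPC1). TF and FTL with PABPC4 are the filled points, on opposite sides of 1.

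Setting the PABPC4 RIP against the PABPC1 RIP asks which of these mRNAs differed between the proteins. The IgG libraries are no part of this contrast, but they enter the scaling and the estimate of spread. TFRC and FTL were lower with PABPC4 than with PABPC1 relative to the median gene. The limma voom fit tested 7956 genes, those that reached 10 reads in 2 or more libraries, and called 2.31% higher and 2.07% lower at an adjusted p under 0.05. Of the 8 iron genes it tested, 2 were called lower and 0 higher, and at an unadjusted p under 0.05 these counts were 4 lower and 0 higher, where 7.86% of all tested genes were lower and 8.5% higher. ACO1 did not reach the read filter. TFRC fell by 0.95 on the log2 scale (SE 0.28, limma voom adjusted p = 0.041), which is 0.518-fold. FTL fell by 0.68 on the log2 scale (SE 0.11, limma voom adjusted p = 7.1e-05), which is 0.622-fold. For scale, 3.17% of tested genes had a lower value than TFRC and 8.11% a lower value than FTL.

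NCOA4 (log2 fold of -0.55, adjusted p = 0.075), IREB2 (-0.50, adjusted p = 0.539) and FTH1 (-0.42, adjusted p = 0.198) did not pass the limma voom threshold. Nor did TFR2 (-0.07, adjusted p = 0.971), TF (0.14, adjusted p = 0.625) or HAMP (0.36, adjusted p = 0.805) in that limma voom fit. The median over the 8 genes was -0.46, beside 0.0012 over all 7956. Scaled to the median gene, PABPC4 libraries lay below PABPC1 libraries without overlap for 3 of the 8 (TFRC, FTL and NCOA4) and above for none, where 21.3% of tested genes lay below and 49.3% did not overlap in either direction.

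These values are relative to the median gene, and library totals give another picture. Totals shift the median gene to 0.45 on the log2 scale of PABPC4 over PABPC1. On that scale 13.9% of tested genes were called higher and 0.679% lower, TF was 0.59 higher with PABPC4 (limma voom adjusted p = 0.0015), and neither TFRC (-0.51, adjusted p = 0.234) nor FTL (-0.25, adjusted p = 0.160) passed in limma voom. The FTL call was also lost with limma-trend (adjusted p = 0.177) and without PABPC1 library A (adjusted p = 0.582) or B (adjusted p = 0.187). The TFRC call rests on 89 PABPC4 reads and 42 PABPC1 reads. It was lost in limma voom with no read filter (0.518-fold, adjusted p = 0.30) and with limma-trend (0.517-fold, adjusted p = 0.531), which called 9 genes higher and 19 lower in all, and without PABPC4 library A (0.074) or B (0.118) or PABPC1 library A (0.757) or B (0.432). Without PABPC1 library A or B the limma voom fit called few genes at all, 6 higher and 9 lower without A and 1 higher and 11 lower without B, beside 184 higher and 165 lower with every library. Other settings added calls: NCOA4 passed in limma voom with nuclear totals (adjusted p = 0.048), with a filter of 20 reads (0.042), and without PABPC4 library B (0.027) or IgG library B (0.047), and FTH1 without PABPC4 library B (0.638-fold, 0.011).

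**Figure D3:**
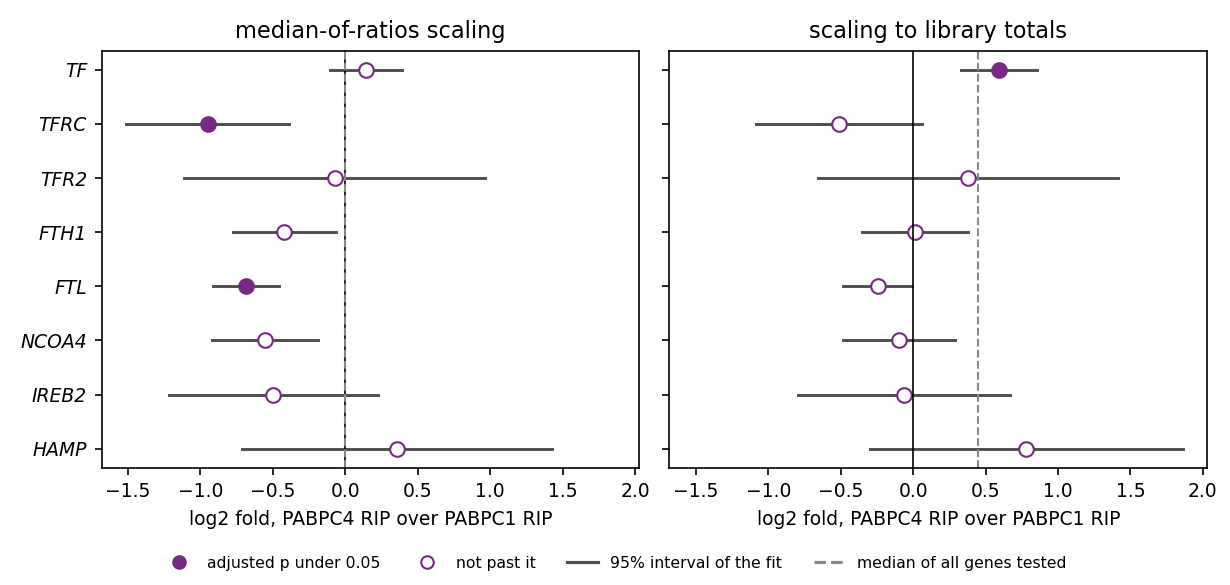
Log2 fold of PABPC4 RIP over PABPC1 RIP for the 8 iron mRNAs tested, scaled to the median gene (left) and to library totals (right), with 95% intervals of the limma voom fit. Filled points have an adjusted p under 0.05, and the dashed line is the median of all genes tested (0.0012 left, 0.45 right). TFRC and FTL are filled on the left and TF alone on the right.

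Ratios between these mRNAs within a library do not depend on the scaling. Ferritin reads made up 43.0% and 49.7% of the reads of the 9 genes in the PABPC4 libraries, 58.4% and 50.8% in the PABPC1 libraries and 70.9% and 68.0% in the IgG libraries. The 3 antibodies did not overlap in this share, PABPC4 lowest and IgG highest. Over summed reads the share was 46.5% (exact interval 44.8% to 48.2%) with PABPC4, 54.6% (51.5% to 57.7%) with PABPC1 and 69.7% (65.0% to 74.1%) with IgG. The light chain supplied 70.2% of ferritin reads with PABPC4, 74.0% with PABPC1 and 71.6% with IgG, and the exact intervals overlapped.

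TFRC reads were 7.41% and 7.49% of TFRC and TF reads in the PABPC4 libraries, 17.0% and 12.4% in the PABPC1 libraries and 13.0% and 11.4% in the IgG libraries. The receptor thus took less of the uptake pair with PABPC4 than in any PABPC1 or IgG library, and the exact intervals over summed reads were 6.02% to 9.09% with PABPC4, 10.7% to 19.2% with PABPC1 and 6.08% to 21.5% with IgG. NCOA4 reads were 24.1% and 23.2% of NCOA4 and FTL reads with PABPC4, 18.05% and 26.25% with PABPC1 and 12.8% and 14.7% with IgG. The IgG libraries were the lowest of these. An exact permutation test of 2 against 2 libraries cannot go below p = 0.333 (two-sided), so these shares carry counting intervals and no test over libraries.

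Genes that moved most like these across the 6 libraries were found by the distance of their centred log2 RPM, among genes of 20 or more IgG reads. TF was nearest to HMGB2 (distance 0.146), SEPT9 (0.171) and P4HB (0.176), against a median distance of 0.767 over 826 genes. NCOA4 was nearest to EIF4EBP2 (0.185), EIF2AK1 (0.242) and AHCY (0.267), against a median of 1.05. FTH1 and FTL were among each other's 3 nearest genes at 0.391. FLNA (0.323) was closer to FTH1, and MTATP6P1, a nuclear copy of a mitochondrial gene, was near both, at 0.438 from FTH1 and 0.352 from FTL. The third gene near FTL was AC026366.1, at 0.370. All of these genes share the same 6 libraries, so a common profile across them says nothing of shared function.

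The wider iron and haem pathway was described with 84 listed genes outside the 9. With PABPC4, 75 had a deposited p, of which 4 were called higher and 2 lower, where 5.54% of all genes were called higher and 0.9% lower. With PABPC1, 72 had a deposited p, of which 2 were called higher and 0 lower, where 1.34% of all genes were called higher and 0.194% lower. At an unadjusted deposited p under 0.05 the counts were 10 higher and 3 lower with PABPC4 and 6 higher and 2 lower with PABPC1, beside the shares of all genes given above for that threshold. The median deposited fold over the 61 with reads in every group was 1.5 with PABPC4 and 1.27 with PABPC1, beside 1.71 and 1.27 over all genes.

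HSPA9, a mitochondrial chaperone of iron-sulphur cluster assembly, was higher than IgG with both proteins. It had 446 and 410.1 RPM with PABPC4, 266 and 238 with PABPC1 and 82.7 and 106 with IgG. The authors' deposited table listed HSPA9 at 4.53-fold with PABPC4 (adjusted p = 6.23e-12) and 2.67-fold with PABPC1 (adjusted p = 0.0019). The PABPC1 call of HSPA9 was lost under median-of-ratios scaling (2.0-fold, limma voom adjusted p = 0.169) and without IgG library A (2.37-fold, adjusted p = 0.694 by the chi-square test).

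LRP1, the receptor that takes up haem bound to haemopexin, had 221 and 267 RPM with PABPC4, 232 and 295 with PABPC1 and 120.3 and 95.5 with IgG. It was listed in the authors' deposited table at 2.26-fold with PABPC4 (adjusted p = 0.0026) and 2.44-fold with PABPC1 (adjusted p = 0.0059). Both LRP1 calls were lost under median-of-ratios scaling, at 1.22-fold with PABPC4 (limma voom adjusted p = 0.684) and 1.79-fold with PABPC1 (limma voom adjusted p = 0.244). They were lost without either IgG library too, with adjusted p from the chi-square test of 0.162 and 0.129 for PABPC4 and 0.355 and 0.241 for PABPC1. The PABPC1 call of LRP1 was also lost without PABPC1 library B (chi-square adjusted p = 0.135).

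CP and CDC42BPA were called higher with PABPC4. CP, the plasma ferroxidase ceruloplasmin, had 95.3 and 70.1 RPM with PABPC4, 89.9 and 36.0 with PABPC1 and 15.0 and 10.6 with IgG. The authors' deposited table listed CP at 6.43-fold with PABPC4 (adjusted p = 0.011), on 3 IgG reads, with an exact interval of 2.10 to 30.8, and at 4.90-fold with PABPC1 (adjusted p = 0.237), with an interval of 1.52 to 24.4. Between the RIPs, CP was 1.04-fold (limma voom adjusted p = 0.968). CDC42BPA, a kinase whose mRNA carries an iron-responsive element, was listed in the authors' deposited table at 4.59-fold with PABPC4 (adjusted p = 0.00011) and 2.63-fold with PABPC1 (adjusted p = 0.292). Its reads numbered 142 and 140 with PABPC4, 25 and 29 with PABPC1 and 4 and 4 with IgG. Under median-of-ratios scaling neither CP (2.67-fold, adjusted p = 0.258) nor CDC42BPA (2.38-fold, adjusted p = 0.125) passed in limma voom. The chi-square call of CP was lost without IgG library A (adjusted p = 0.493) or B (0.206), and that of CDC42BPA without IgG library A (0.154).

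ALAS2 and CYBRD1 were called lower with PABPC4. ALAS2, the first enzyme of haem synthesis in the erythroid lineage, whose leader is shown above, had 8 and 3 reads with PABPC4, 3 and 1 with PABPC1 and 6 and 4 with IgG. The authors' deposited table listed ALAS2 at 0.148-fold with PABPC4 (adjusted p = 9.65e-05) and 0.160-fold with PABPC1 (adjusted p = 0.067). Its exact interval with PABPC4 was 0.0570 to 0.388, and it no longer passed without IgG library A (0.153-fold, chi-square adjusted p = 0.069). With PABPC1, ALAS2 passed with the chi-square test at median-of-ratios (adjusted p = 0.021) or nuclear totals (0.010). The erythrocyte markers were lower in the same RIP libraries, as given above, and their part in the ALAS2 value was not tested. CYBRD1, an iron reductase of the plasma membrane, was called from 0 PABPC4 reads against 3 IgG reads, all 3 in IgG library B (adjusted p = 0.0033 in the authors' deposited table). Without PABPC4 library A or B that CYBRD1 call was lost (chi-square adjusted p of 0.118 and 0.110), and without IgG library B there was no CYBRD1 read left to test.

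**Figure D4:**
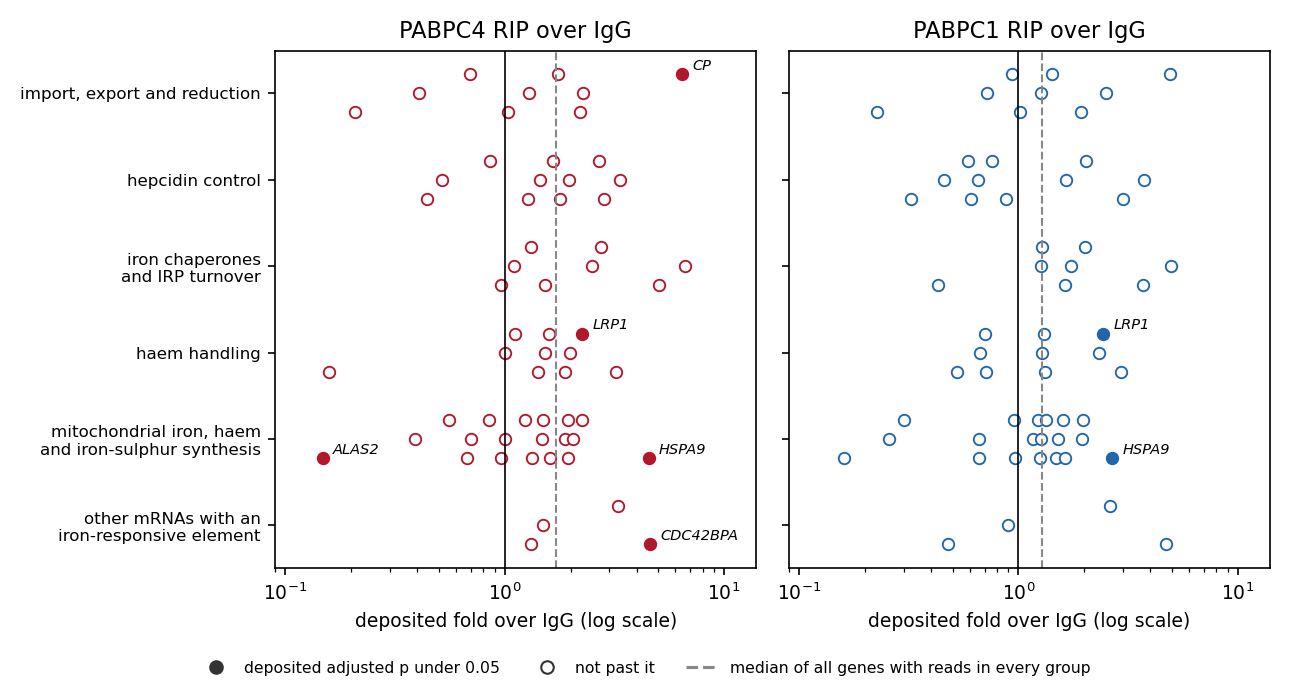
Deposited folds over IgG of the 61 listed iron and haem genes with reads in every group, by function, on a log axis, PABPC4 RIP left and PABPC1 RIP right. Filled, named points have a deposited adjusted p under 0.05 and the dashed line is the median of all genes. HSPA9 and LRP1 are filled on both sides, CP, CDC42BPA and ALAS2 with PABPC4, and CYBRD1 is not drawn because it had 0 PABPC4 reads.

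Between the RIPs, 45 of the 84 genes were tested, and limma voom called 1 higher and 2 lower with PABPC4. Of all tested genes it called 2.31% higher and 2.07% lower, so these counts are near the background. At an unadjusted p under 0.05 in that fit the counts were 4 higher and 5 lower. Of all tested genes 8.5% were higher and 7.86% lower at that threshold. STAT3, which relays inflammatory signals to the hepcidin gene, had 166 and 177 RPM with PABPC4, 38.0 and 68.5 with PABPC1 and 90.2 and 84.9 with IgG. Relative to the median gene, limma voom gave STAT3 a log2 fold of 1.25 (SE 0.29, adjusted p = 0.0053). GLRX5, a mitochondrial glutaredoxin of iron-sulphur assembly, had 40.0 and 71.3 RPM with PABPC4, 96.8 and 82.9 with PABPC1 and 15.0 and 95.5 with IgG. It fell by 1.2 on the log2 scale (SE 0.31, limma voom adjusted p = 0.015). LRP1 fell by 0.56 on the log2 scale (SE 0.16, limma voom adjusted p = 0.037). On library totals STAT3 passed (3.27-fold, limma voom adjusted p = 5.9e-05), and neither GLRX5 (0.590-fold, adjusted p = 0.099) nor LRP1 (0.927-fold, adjusted p = 0.705) did. All 3 calls were lost in limma voom without either PABPC1 library (adjusted p from 0.280 to 0.783), with no read filter (0.056 to 0.191) and with limma-trend (0.215 to 0.848). With no read filter the folds were 2.38 for STAT3, 0.679 for LRP1 and 0.436 for GLRX5, and with limma-trend 2.39, 0.680 and 0.435. The calls of GLRX5 (0.159) and LRP1 (0.199) were also lost without PABPC4 library A.

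The other genes named by their reads were SLC39A14, which imports iron not bound to transferrin, and EPAS1, a hypoxia factor whose mRNA carries an iron-responsive element. SLC39A14 had 212 and 238 RPM with PABPC4, 235 and 205 with PABPC1 and 188 and 159 with IgG. EPAS1 had 239 and 258 RPM with PABPC4, 156 and 184 with PABPC1 and 165 and 212 with IgG. The authors' deposited table listed SLC39A14 at 1.29-fold with PABPC4 (adjusted p = 0.770) and 1.27-fold with PABPC1 (adjusted p = 1). It listed EPAS1 at 1.32-fold with PABPC4 (adjusted p = 0.491) and 0.898-fold with PABPC1 (adjusted p = 1), again in the authors' deposited table.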

How the data were processed

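The 2 deposited tables, 1 for each RIP over IgG, list 58302 genes and have 0 columns of single-library values. Per the file headers their columns are a fold (a linear ratio of RIP over IgG), a p-value and a Benjamini-Hochberg adjusted p. Tools listed in the submitters' processing notes are STAR 2.7.10a, Bowtie2 2.4.1 and featureCounts 2.0.1, with GRCh38 and hg38 as builds. Per the labels' protocols, libraries used a SMART-seq kit with random primers.

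As found from the values, the authors' p-value is that of a Yates-corrected chi-square test of reads summed over libraries, and their fold divides the mean RPKM of the RIP by that of IgG plus 0.005. Recomputed p-values were within a log ratio of 1e-11 and folds within 1e-13. Whole reads of every library followed for 15698 genes and sums for 17750 of 22607 with a p, the 9 genes included. In a simulation of 5000 genes all 4461 returned sets of library reads were right.

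RIP over IgG is the deposited call (adjusted p under 0.05), with exact 95% intervals of ratios and shares from summed reads. Reads carry no molecular identifiers, so these cover counting error only. PABPC4 over PABPC1 was fitted with limma 3.58.1 (voom, empirical Bayes) in R 4.3.3 on the 7956 genes that reached 10 reads in 2 or more libraries, with 3 groups, median-of-ratios scaling and 3 residual degrees of freedom, Benjamini-Hochberg over all genes. In a simulation of 7549 genes for this comparison it recovered 51 of 100 genes changed 2-fold and 98 of 100 changed 4-fold, and called 9 of 7349 unchanged genes. The simulation gave every library the same expression profile and an assumed spread between libraries. Its changed genes were drawn from those expecting 10 or more reads in PABPC1 library B. These rates may therefore not hold for the real libraries, whose profiles differ between antibodies. limma voom was also run against IgG, with library totals and, chosen after seeing the data, with median-of-ratios scaling. Folds named as chi-square repeat the deposited test with other totals or without a library. Nuclear totals are the recovered reads of nuclear-encoded genes.

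The genes and lists were chosen with earlier results of these data known. Named genes outside the 9 are every listed iron or haem gene past an adjusted p of 0.05 in a deposited table or in the fit of PABPC4 over PABPC1, the 5 with the most reads, the ferritin pseudogene with the most reads for each parent, and the 3 nearest genes of each of the 4 genes of 20 or more IgG reads. Coordinates and sequences are RefSeq's for GRCh38.p14.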

Additional observations from a re-analysis of the deposited data

Results flagged for a closer look

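The difference between the levels in PABPC4 RIP and PABPC1 RIP passed the test of that difference for 5 genes. Each is given here as the log2 fold of PABPC4 RIP over PABPC1 RIP in the limma voom fit, relative to the median gene. Among the 9 iron mRNAs, TFRC had -0.95 and FTL -0.68, both lower with PABPC4. In the wider list STAT3 had 1.25, higher with PABPC4, while LRP1 had -0.56 and GLRX5 -1.20. With library totals TFRC, FTL, LRP1 and GLRX5 no longer passed, and STAT3 did. The fit tested 8 of the 9 iron mRNAs and 45 of the 84 genes of the wider list. Relative to the median gene it called 2.31% of all tested genes higher and 2.07% lower.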

How the results depend on the processing

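With 2 libraries a group and 94235 to 133030 IgG reads, depth limits every comparison with IgG, and ACO1, TFR2, IREB2 and HAMP had 4 or fewer IgG reads. No paired analysis was possible because the recovered libraries carry no replicate number. The scaling shifted all genes: against IgG, the median gene of the limma voom fit lay at log2 0.90 (PABPC4) and 0.44 (PABPC1) on library totals and at 0.07 and 0.06 with median-of-ratios scaling. In all, 447 of 569 recomputed folds of named genes kept direction and side of the threshold, 58 lost the call, 22 gained one and 42 turned direction. The cause of changes other than fewer libraries was not tested. In the counts that follow, limma voom with the main read filter tested 45 of the 84 other genes. On library totals it called 28.7% of all tested genes higher for PABPC4 over IgG and 13.9% for PABPC4 over PABPC1. The counts called higher on library totals are to be read beside these shares.

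Of the 9 genes over IgG with PABPC4, 1 was called higher, and 0 with limma voom at median-of-ratios scaling and with chi-square at median-of-ratios or nuclear totals, while 1 was called lower against 2 under each of these 3, and 0 to 2 with a library left out. With PABPC1, 0 were called lower, against 1 with limma voom at median-of-ratios scaling and 2 with chi-square at either total. Over PABPC1, PABPC4 had 0 higher, against 1 on library totals, and 2 lower, against 0 on library totals, 1 with no read filter, 0 with limma-trend and 0 to 3 with a library left out. Of the 84 other genes, PABPC4 over IgG had 4 higher, against 10 (limma voom, library totals), 2 (limma voom, median-of-ratios), 1 under each of the 2 chi-square totals and 1 to 4 with a library left out, and 2 lower, against 3 under each of the 2 chi-square totals, 1 with any library left out, and 0 with either limma voom fit, whose read filter leaves both of these genes untested. PABPC1 over IgG had 2 higher, against 0 with limma voom at median-of-ratios scaling, 0 under each of the 2 chi-square totals and 0 to 2 with a library left out, and 0 lower, against 1 under each of the 2 chi-square totals. PABPC4 over PABPC1 had 1 higher, against 6 on library totals, 0 with no read filter, 0 with limma-trend and 0 to 1 with a library left out, and 2 lower, against 0 under these 3 and 0 to 2 with a library left out.

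Directions turned as follows, none of them past a threshold. For PABPC4 over IgG, in the order limma voom at median-of-ratios scaling, chi-square at median-of-ratios totals and chi-square at nuclear totals, TFRC gave 0.619, 0.679 and 0.612, NCOA4 0.733, 0.756 and 0.681, SLC39A14 0.708, 0.730 and 0.659, EPAS1 0.742, 0.748 and 0.673, and GLRX5 0.759, 0.587 and 0.524. TFR2 gave 0.738 in the limma voom fit and 0.909 at nuclear totals, where STAT3 gave 0.998. For PABPC1 over IgG in the same order, TFR2 gave 0.777, 0.944 and 0.873 and SLC39A14 0.946, 0.977 and 0.903, HAMP gave 0.90 and 0.816 at the chi-square totals, and TF 0.978 at nuclear totals. For PABPC4 over PABPC1 on library totals, TFR2 gave 1.30, FTH1 1.01 and SLC39A14 1.01. With a library left out, PABPC4 over IgG ranged from 0.966 to 2.09 for HAMP and 0.583 to 3.70 for GLRX5, PABPC1 over IgG from 0.550 to 1.52 for HAMP, 0.941 to 5.97 for GLRX5 and 0.799 to 1.03 for EPAS1, and PABPC4 over PABPC1 from 0.717 to 1.26 for TFR2, 0.848 to 1.90 for HAMP and 0.632 to 1.67 for CP. No fold over IgG could be formed for ACO1 without IgG library A, nor for HAMP and CYBRD1 without IgG library B, which left 0 IgG reads.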
